A study of Mus musculus with 12 samples.

Results

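The CC chemokines of mouse heart were followed through treatment with bacterial lipopolysaccharide (LPS) and with LPS plus XJDHT, the Xijiao Dihuang decoction named in the study's title. Members were all genes whose symbol is Ccl followed by a number and at most 1 letter and that the Control and LPS files list. Of 25 such symbols in the mouse annotation, 14 met the rule, out of 13438 annotated genes in those files: Ccl2, Ccl5, Ccl6, Ccl7, Ccl8, Ccl9, Ccl11, Ccl12, Ccl17, Ccl19, Ccl21a, Ccl21b, Ccl24 and Ccl27a. All mice were wild type and C57BL/6, and whole heart was sampled in 3 groups of 4 mice: Control (saline in place of both agents, for 3 days), LPS (10 mg/kg, with saline in place of XJDHT, for 3 days) and LPS+XJDHT (the same LPS with XJDHT at 50 mg/kg per day). Age, sex and route of dosing are not stated in the labels, and libraries are called below by group and replicate number. XJDHT was given only together with LPS, so its effect on an untreated heart was not measured.

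Chemokines are small secreted proteins that bind G protein-coupled receptors on leukocytes and direct their movement along a gradient. CC chemokines take their name from a pair of adjacent cysteines near the start of the mature protein. In the heart, Ccl2 and its relatives are known for drawing in blood monocytes through the receptor CCR2, and Ccl19 and Ccl21 for guiding dendritic cells and T cells through CCR7.

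Levels are given in FPKM, fragment numbers divided by transcript length and by the size of the library, summed over the transcripts of a gene, so that levels of different genes can be set side by side per length. Each library rested on 73.9 to 77.8 M fragments, a size inferred from the spacing of its values. Of the 14 members, 12 were listed in all 12 files. A transcript was in the Control and LPS files when its mean in 1 of those groups was about 0.5 FPKM or more, so Ccl5, Ccl17 and Ccl19, with Control means under that level, entered through LPS, and Ccl24 and Ccl27a entered through Control. Of the 11 other symbols, 10 had no value in any file used here, and Ccl3 was listed only in the LPS+XJDHT files, at 0.85, 0.86, 0.33 and 0.42 FPKM.

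The feature that defines the family is shown for the members on which the results turn. Each line is 60 coding bases, 5′ to 3′, from the GENCODE transcript (GRCm38), with the codons of the paired cysteines in capitals. Ccl2 (chr11:82035571-82037453, plus strand) and Ccl12 (chr11:82101845-82103400, plus strand) belong to one cluster. Ccl5 (chr11:83525778-83530518, minus strand) and Ccl6 (chr11:83587882-83593087, minus strand) belong to another. The near-identical pair Ccl21a (chr4:42772860-42773993, minus strand) and Ccl21b (chr4:42255767-42256432, plus strand) is shown because reads were divided between the copies.
Ccl2: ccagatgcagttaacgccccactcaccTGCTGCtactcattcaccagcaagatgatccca
Ccl12: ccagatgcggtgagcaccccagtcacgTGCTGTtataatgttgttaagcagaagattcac
Ccl5: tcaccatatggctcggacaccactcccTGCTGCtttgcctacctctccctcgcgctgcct
Ccl6: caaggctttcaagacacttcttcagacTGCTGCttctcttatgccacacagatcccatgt
Ccl21a: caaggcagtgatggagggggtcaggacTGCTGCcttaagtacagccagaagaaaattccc
Ccl21b: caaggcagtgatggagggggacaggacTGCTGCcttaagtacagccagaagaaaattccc
The coding sequences of Ccl21a and Ccl21b were identical at 397 of 399 positions (99.5%), whereas Ccl2 and Ccl12 matched at 69.7% of aligned bases and Ccl6 and Ccl9 at 70.7%.

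Of the 14 members, 8 lie in those clusters on chromosome 11. Ccl2, Ccl7, Ccl11, Ccl12 and Ccl8, in this order, span 81.2 kb (chr11:82035571-82116799). Ccl5, Ccl9 and Ccl6 span 67.3 kb (chr11:83525778-83593087), 1409 kb further on. Ccl6 and Ccl9 have 4 coding exons and the other members on chromosome 11 have 3. Ccl19, Ccl21a and Ccl27a are on chromosome 4, Ccl17 on chromosome 8 and Ccl24 on chromosome 5.

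In saline-treated hearts the family was led by Ccl6, Ccl21a and Ccl9, which together made up 82.8% to 90.8% of the summed level of the 12 members. Mean Control levels were 27.8 ± 11.97 FPKM for Ccl6, 26.3 ± 5.10 for Ccl21a and 9.39 ± 3.45 for Ccl9 (SD, n = 4 for each mean here and below). Ccl6 and Ccl21a did not differ beyond their spread, and the lowest Ccl6 library, at 17.8 FPKM, was above the highest Ccl9 library, at 14.3. Next came Ccl21b at 3.16 ± 2.30, Ccl2 at 2.73 ± 1.21, Ccl7 at 1.90 ± 1.71, Ccl8 at 1.41 ± 0.893, Ccl11 at 1.11 ± 0.343, Ccl24 at 1.05 ± 0.482 and Ccl12 at 1.00 ± 0.472 FPKM, neighbours whose ranges overlapped. Ccl27a stood at 0.789 ± 0.153 FPKM, Ccl5 and Ccl17 had Control means under 0.3 FPKM, and Ccl19 was listed at 0 in every Control library.

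In hearts given LPS the order was different. Ccl2 was highest at 60.6 ± 17.4 FPKM and no other member overlapped it. Next came 5 members, each of whose ranges overlapped that of its neighbour: Ccl7 at 18.5 ± 4.01, Ccl6 at 18.1 ± 5.11, Ccl5 at 14.0 ± 4.85, Ccl21a at 12.8 ± 3.41 and Ccl9 at 11.1 ± 2.90. Ccl12 stood at 7.57 ± 2.00, Ccl11 at 5.20 ± 2.52 and Ccl8 at 2.96 ± 0.924 FPKM. The 5 genes of the Ccl2 cluster made up 7.95% to 11.6% of the summed level in Control libraries, 57.8% to 67.6% in LPS and 51.1% to 71.7% in LPS+XJDHT. The summed level itself was 75.3 ± 24.5 FPKM in Control, 155 ± 27.3 in LPS and 132 ± 6.19 in LPS+XJDHT.

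**Figure D1:**
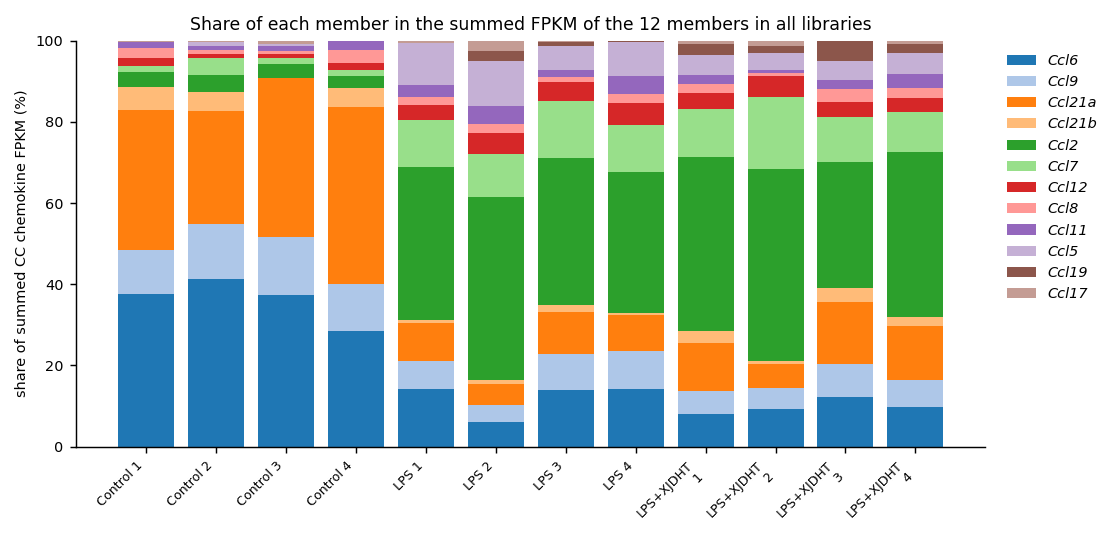
Stacked bars give the share (%) of each of the 12 CC chemokines listed in all files in their summed FPKM, 1 bar per library. Ccl6 (blue), Ccl9 and Ccl21a (orange) fill 82.8% to 90.8% of each Control bar, and Ccl2 (green) alone takes 34.8% to 45.1% of each LPS bar.

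Changes were tested with limma on log2(FPKM + 1), so a log2 change understates that of a gene near or under 1 FPKM. A change was called at a Benjamini-Hochberg adjusted p under 0.05 over the 11502 genes that reached 1 FPKM in at least 4 libraries, and all p-values named adjusted below are from that fit. Of the 14 members, 11 were tested. Ccl17 did not reach the limit, and Ccl24 and Ccl27a were not listed in the LPS+XJDHT files. In LPS against Control, 38.7% of all tested genes were called (26.6% higher and 12.1% lower), and the groups did not overlap for 37.5%. Among the 11 tested members 5 rose (Ccl2, Ccl5, Ccl7, Ccl11 and Ccl12), 1 fell (Ccl21a) and 5 did not pass, 6 had groups that did not overlap, and the median log2 change was 0.952 against 0.16 for all tested genes. Ccl5 and Ccl19, with Control means under 0.5 FPKM, were listed and reached the limit only through treated libraries, so any change against Control had to be upwards. Their differences from Control, and those of other genes nearly at 0 in Control, are given as descriptions, and neither the counts with them nor this median is a result about the family. With each library divided by its median ratio to the others, the same 6 members were called in the same directions.

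Ccl2, the monocyte attractant also called MCP-1, was listed in every group and rose. It was at 3.08, 4.29, 1.61 and 1.94 FPKM in Control, at 51.6, 84.6, 61.1 and 44.98 in LPS, and at 60.6, 62.3, 39.5 and 52.1 in LPS+XJDHT. Every LPS and LPS+XJDHT library was above every Control library, and the ranges of the LPS and LPS+XJDHT libraries overlapped. The mean in LPS was 22.2 times the Control mean (log2 change 4.06 ± 0.25 SE, adjusted p = 8.5e-07, higher in 4 of 4 libraries). These levels rest on 106 to 263 fragments per library in Control and 2791 to 5371 in LPS.

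Part of the Ccl2 signal came from a transcript that keeps an intron, Ccl2-202. RNA was depleted of ribosomal RNA rather than selected for poly(A) tails, and incompletely spliced RNA is therefore measured too. The retained-intron transcript held 1.97%, 1.13%, 10.9% and 16.4% of Ccl2 FPKM in Control, 5.61%, 4.90%, 6.46% and 8.43% in LPS, and 7.15%, 6.13%, 0.519% and 5.94% in LPS+XJDHT. Its share in LPS lay within the wide range of the Control libraries. The spliced transcript Ccl2-201 had mean levels of 2.58 FPKM in Control, 56.9 in LPS and 50.8 in LPS+XJDHT.

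Ccl7, or MCP-3, a ligand of CCR1, CCR2 and CCR3, rose with Ccl2. Its levels were 1.34, 4.44, 0.786 and 1.03 FPKM in Control, 15.8, 19.7, 23.6 and 14.8 in LPS, and 16.9, 23.1, 14.2 and 12.6 in LPS+XJDHT. Control 2 was the highest Control library and stayed below all treated libraries. The log2 change in LPS was 2.88 ± 0.32 (adjusted p = 4.4e-05), with a mean 9.72 times that of Control.

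Ccl12, the mouse chemokine MCP-5, which binds CCR2, was at 1.53, 1.07, 0.383 and 1.04 FPKM in Control, at 5.09, 9.90, 8.05 and 7.21 in LPS and at 5.35, 6.96, 4.95 and 4.21 in LPS+XJDHT. All 8 treated libraries were above the Control libraries. It rose by 2.10 ± 0.22 on the log2 scale in LPS (adjusted p = 3.2e-05), to 7.54 times the Control mean.

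Ccl11, or eotaxin, an attractant of eosinophils through CCR3, was at 1.34, 1.14, 0.618 and 1.35 FPKM in Control, at 4.10, 8.43, 2.54 and 5.71 in LPS and at 3.35, 1.16, 2.91 and 4.56 in LPS+XJDHT. LPS and Control did not overlap, whereas LPS+XJDHT 2 fell inside the Control range. Its log2 change in LPS was 1.48 ± 0.33 (adjusted p = 0.0039). None of the 6 eosinophil markers examined (Siglecf, Epx, Prg2, Ear1, Ear2 and Ear6) had a value in all files.

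Ccl8, or MCP-2, was the member of the Ccl2 cluster that did not pass. It stood at 2.13, 0.938, 0.377 and 2.18 FPKM in Control, at 2.62, 4.26, 2.10 and 2.85 in LPS and at 3.16, 0.693, 3.83 and 3.32 in LPS+XJDHT. The lowest LPS library was just below the 2 highest Control libraries, and the log2 difference of 0.77 had a 95% interval of -0.01 to 1.56 (adjusted p = 0.109). Without LPS+XJDHT 2, which enters the shared estimate of the spread, its adjusted p in LPS against Control was 0.0421.

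Ccl5, or RANTES, a ligand of CCR1 and CCR3 made by T cells and stimulated macrophages, lies outside that cluster. It was listed at 0, 1.03, 0.169 and 0 FPKM in Control, and reached 14.2, 20.8, 10.3 and 10.9 FPKM in LPS and 6.75, 5.35, 6.17 and 6.48 in LPS+XJDHT. The 3 groups did not overlap. The difference of LPS from Control was 3.55 ± 0.25 on the log2(FPKM + 1) scale, measured on 423 to 850 fragments per LPS library against 0 to 41 in Control. It was 5.86 with a pseudocount of 0.1, above the 4.48 of Ccl2, so the order of these members depends on the number added.

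Ccl6 and Ccl9 are neighbours on chromosome 11, related mouse chemokines expressed by myeloid cells that bind CCR1. Ccl6 was at 31.9, 42.9, 17.8 and 18.5 FPKM in Control, at 19.2, 11.2, 23.6 and 18.3 in LPS and at 11.4, 12.2, 15.6 and 12.6 in LPS+XJDHT. The Control libraries split into a higher and a lower pair, and the LPS range reached into the lower pair. The LPS difference of -0.54 on the log2 scale (95% interval -1.15 to 0.07) did not pass (adjusted p = 0.147).

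Ccl9 was at 9.04, 14.3, 6.72 and 7.45 FPKM in Control, at 9.46, 8.13, 14.6 and 12.2 in LPS and at 7.85, 6.79, 10.3 and 8.43 in LPS+XJDHT. All 3 groups overlapped. The LPS difference was 0.24 on the log2 scale, with an interval of -0.26 to 0.74 (adjusted p = 0.433).

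Ccl19 and Ccl21 are the ligands of CCR7. Ccl19 was listed at 0 in all 4 Control libraries, at 0, 4.23, 1.38 and 0.127 FPKM in LPS and at 4.02, 2.44, 6.29 and 2.97 in LPS+XJDHT. LPS 1 shared the Control value of 0, and LPS against Control did not pass (difference 0.95 on the log2(FPKM + 1) scale, which depends on the added 1, adjusted p = 0.110). Without LPS 1 the adjusted p was 0.0429.

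Ccl21a was the member that fell in LPS. Its summed level was 29.1, 29.0, 18.6 and 28.4 FPKM in Control, 13.04, 9.53, 17.5 and 11.3 in LPS and 16.8, 7.84, 19.7 and 17.1 in LPS+XJDHT. The lowest Control library, Control 3, was just above the highest LPS library. It fell by 0.99 ± 0.27 on the log2 scale (adjusted p = 0.012), and the Control mean was 2.04 times the LPS mean.

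Ccl21 signal was split over annotated loci that differ by few bases, so the level of a single copy is uncertain. Ccl21a-201 on chromosome 4 was at 11.3, 11.4, 6.87 and 0 FPKM in Control, and Ccl21a-202 on an unplaced scaffold was at 17.8, 17.6, 11.8 and 28.4. In Control 4, where the chromosome 4 locus was listed at 0, the scaffold copy was the highest of all libraries. Ccl21b, summed over 2 scaffold loci, was at 4.87, 4.84, 0 and 2.92 FPKM in Control, 0.964, 1.91, 2.80 and 0.592 in LPS and 4.00, 0.941, 4.49 and 2.91 in LPS+XJDHT, and did not pass (log2 difference -0.49, adjusted p = 0.514, with the other sign by limma-voom on recovered fragments: 0.81, adjusted p = 0.724). The chromosome 4 locus of Ccl21b was listed only in the LPS+XJDHT files and is outside these sums.

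The sum over the 4 Ccl21a and Ccl21b loci listed in all files gathers the copies, except that on chromosome 4 for Ccl21b. It was 29.4 ± 7.30 FPKM in Control, 14.4 ± 4.07 in LPS and 18.4 ± 6.69 in LPS+XJDHT. Its log2 change in LPS was -0.98 ± 0.30 (adjusted p = 0.023), close to that of Ccl21a alone.

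**Figure D2:**
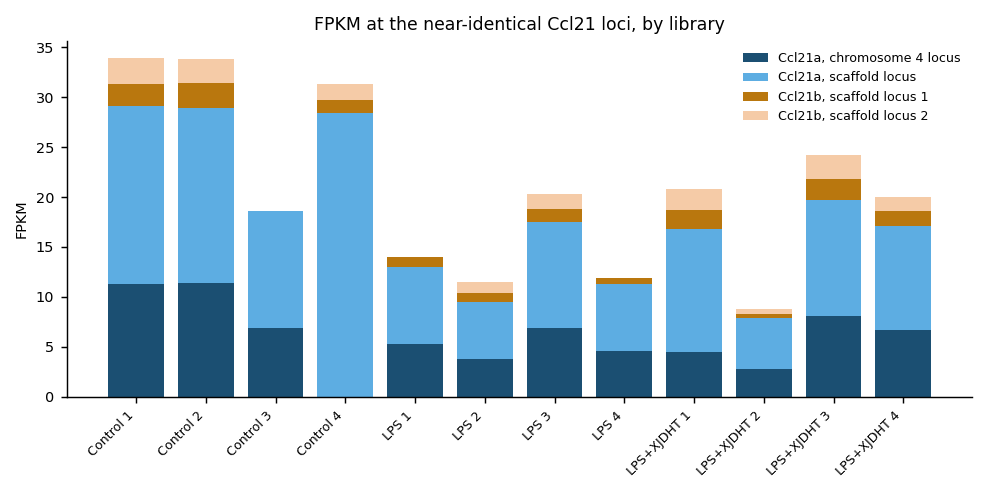
Stacked bars give FPKM at the 4 Ccl21a and Ccl21b loci listed in all files, 1 bar per library. The total is 18.6 to 34.0 FPKM in Control and 11.4 to 20.3 in LPS, and in Control 4 the dark part, the chromosome 4 locus of Ccl21a, is at 0.

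The remaining 3 members had low levels. Ccl17, a ligand of CCR4, was at 0.206, 0.207, 0.425 and 0.0755 FPKM in Control, at 0.723, 4.95, 0.628 and 0.184 in LPS and at 1.00, 1.66, 0 and 0.925 in LPS+XJDHT, and LPS 2 stood far above the other libraries. Ccl24, or eotaxin-2, was at 1.38, 1.22, 0.337 and 1.27 FPKM in Control and at 0, 0.171, 0 and 0.177 in LPS. Ccl27a was at 0.804, 0.681, 0.672 and 1.00 in Control and at 0, 0.155, 0.384 and 0.610 in LPS. For Ccl24 and Ccl27a all Control libraries were above all LPS libraries, but both were listed through their Control level and were given no test.

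**Figure D3:**
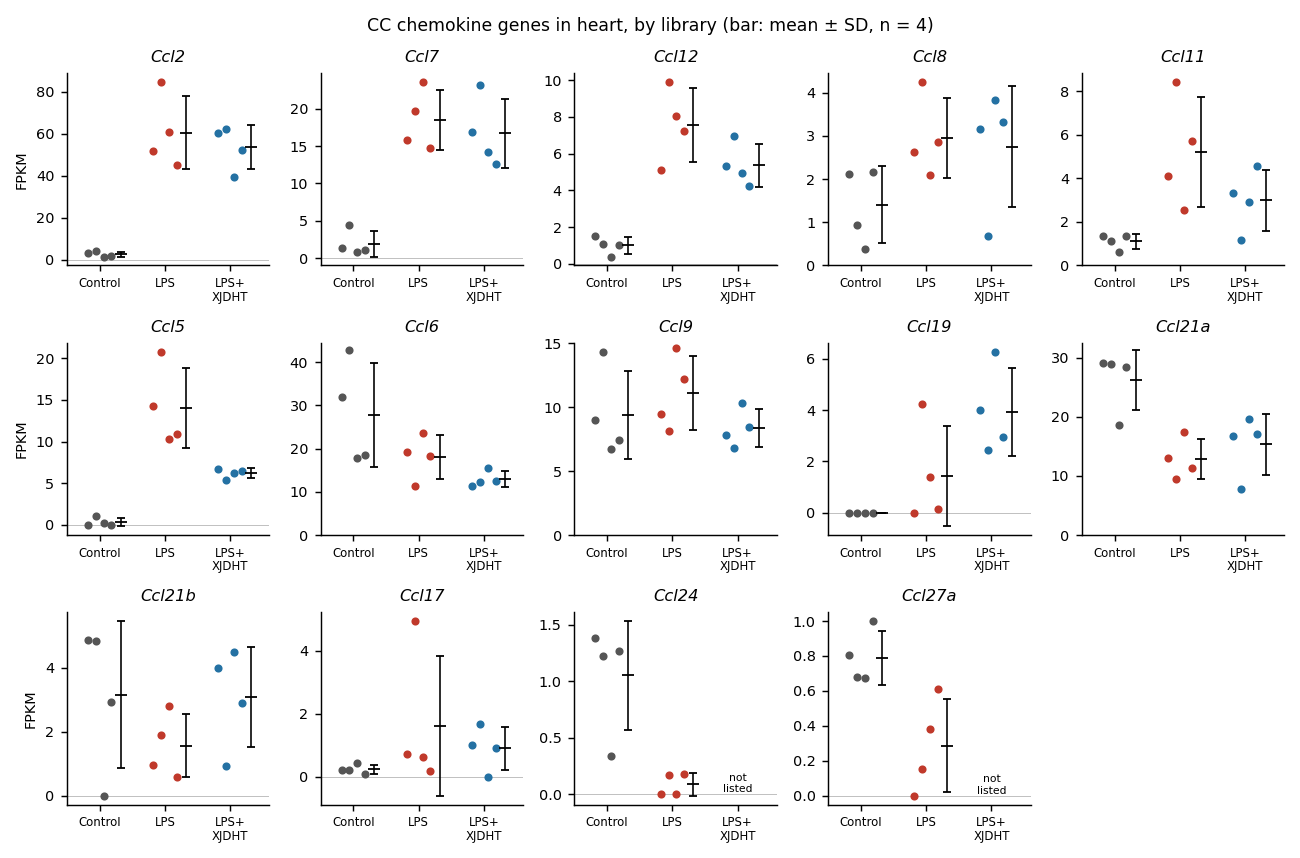
Points are FPKM (linear axes, own scale for each gene) of the 14 CC chemokines in each library, with the group mean ± SD (n = 4) beside them. All LPS and LPS+XJDHT points for Ccl2, Ccl7 and Ccl12 lie above the Control points, Ccl5 is at 10.3 to 20.8 FPKM in LPS and 5.35 to 6.75 in LPS+XJDHT, and Ccl24 and Ccl27a have no LPS+XJDHT value.

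In LPS+XJDHT against LPS, 0.113% of all tested genes were called, 13 genes that were all lower, and 4.8% had an unadjusted p under 0.05. By limma 0 of the 11 tested members passed, and 0 by limma-voom on recovered fragments. At an unadjusted p under 0.05 there were 2, Ccl5 and Ccl19, in opposite directions. The median log2 difference of the tested members was -0.157, against 0.031 for all tested genes.

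Ccl5 was the 1 member whose LPS and LPS+XJDHT libraries did not overlap, where 2.82% of all tested genes did not overlap. Its mean was 14.0 ± 4.85 FPKM in LPS and 6.19 ± 0.607 in LPS+XJDHT, a log2 difference of -1.02 (95% interval -1.57 to -0.47, unadjusted p = 0.0018). After adjustment p was 0.554, and it ranged from 0.186 to 1.000 over the alternatives of processing. The exact two-sided permutation test for this gene alone gave p = 0.0286, the smallest that 4 against 4 libraries can give. Any gene whose groups do not overlap gets this value, so it adds no support to the separation for which Ccl5 was picked. The LPS libraries also held more RNA of small intestine genes, a list of 11 markers such as Defa24 and Fabp2 of which 9 had values: their summed level was 3.11 to 10.5 FPKM in Control, 20.6 to 26.3 in LPS and 2.95 to 6.03 in LPS+XJDHT, so that they also moved with the LPS against Control changes above. Of the 8 small intestine genes tested, 7 were among the 13 genes called lower in LPS+XJDHT against LPS. The same 7 were called higher in LPS against Control, and Lgals4 passed in neither. All with values but Lyz1 and Lgals4 had Control and LPS+XJDHT means under 0.5 FPKM. They were listed through LPS, which sets their direction. Platelet markers, 3 of 5 with values, were at sums of 17.2 to 29.5 FPKM in Control, 45.5 to 58.0 in LPS and 27.5 to 38.7 in LPS+XJDHT. Pf4 alone, at 19.6 ± 5.94, 48.8 ± 4.65 and 31.7 ± 4.72 FPKM in these groups, made up most of them. Ppbp did not pass in LPS against Control (log2 difference -0.34, adjusted p = 0.255). Itga2b, with a Control mean of 0.297 FPKM, was listed through the treated groups. The part of either list in the differences of Ccl5 and the other members was not tested.

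Ccl19 was higher in LPS+XJDHT than in LPS by 1.29 on the log2 scale (95% interval 0.32 to 2.26, unadjusted p = 0.0135, adjusted p = 0.961). The groups overlapped, since LPS 2 at 4.23 FPKM was above 3 of the 4 LPS+XJDHT libraries. For Ccl2 the difference was -0.15, with an interval of -0.70 to 0.39, and for Ccl7 it was -0.15 with an interval of -0.84 to 0.55. For Ccl12 it was -0.41 (-0.90 to 0.07), for Ccl11 -0.62 (-1.33 to 0.09) and for Ccl6 -0.42 (-1.03 to 0.19). These intervals include 0 and also differences as large as 0.7 to 1.3 in the lower direction, so a missed threshold does not show equal levels.

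In LPS+XJDHT against Control, 39.2% of all tested genes were called (28.5% higher and 10.7% lower), and 42.1% had groups that did not overlap. Of the tested members 5 rose, 2 fell and 4 did not pass, and 6 had groups that did not overlap. The 5 include Ccl5 and Ccl19, whose direction against Control was set by their listing. Ccl2 rose by 3.91, Ccl7 by 2.73 and Ccl12 by 1.68 on the log2 scale (adjusted p between 1.0e-06 and 1.4e-04). On the log2(FPKM + 1) scale Ccl5 was 2.53 above Control, and Ccl19 was 2.24 above a Control group listed at 0. This comparison shares its Control libraries with that of LPS against Control, and its LPS+XJDHT libraries with that against LPS, so the 3 sets of values are not independent.

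Ccl6 passed here without passing in LPS against Control, as did Ccl19. Ccl6 fell by 0.96 on the log2 scale (adjusted p = 0.018), and its 4 LPS+XJDHT libraries, up to 15.6 FPKM, were all below the lowest Control library at 17.8. Without Control 1 the adjusted p was 0.0508. The step from LPS to LPS+XJDHT did not pass for Ccl6 (adjusted p = 0.995), so a call in one comparison and not in the other shows no difference between LPS and LPS+XJDHT. Ccl21a fell by 0.79 (adjusted p = 0.036), a call lost without Control 1, Control 2, Control 4 or LPS+XJDHT 2 (adjusted p 0.0724 to 0.0832), with a log2 change of -0.51 without LPS+XJDHT 2. The sum of Ccl21a and Ccl21b did not pass (log2 difference -0.69, adjusted p = 0.087).

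Ccl11 was at 0.86 above Control on the log2 scale (adjusted p = 0.056), and without LPS+XJDHT 2 the difference was 1.12 (adjusted p = 0.0134). Without that library Ccl8 also passed, with a difference of 0.96 (adjusted p = 0.0253) against 0.62 (adjusted p = 0.197) with it.

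**Figure D4:**
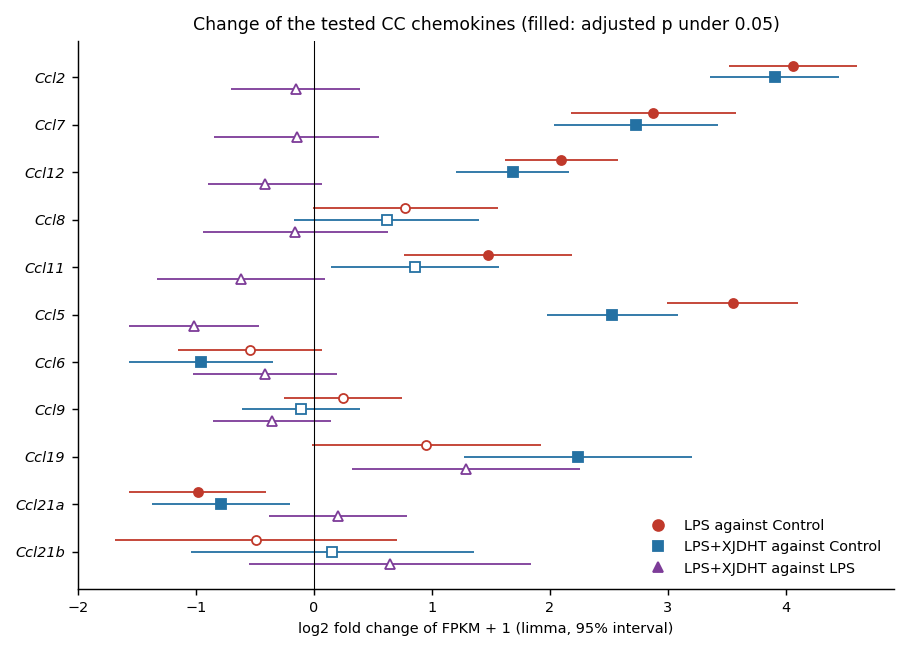
Log2 change of FPKM + 1 (limma, bars are 95% intervals) for the 11 tested CC chemokines in the 3 comparisons, with filled marks where the adjusted p was under 0.05. Ccl2 lies at 4.06 and 3.91 against Control, and no mark of LPS+XJDHT against LPS (triangles) is filled.

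Single libraries stood apart in several members at once. Control 3 was the lowest Control library for 9 of the 12 members listed in all files, and Control 2 was the highest for 5. LPS 2 was the highest LPS library for 7 members and LPS 3 for the other 5. LPS+XJDHT 2 was the lowest of its group for 7 members, and the summed level of 4 Y-linked genes was 0.205 FPKM there against 20.4 or more in every other library. Values without it are given above wherever it changed a call.

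Signalling and atypical receptors of CC chemokines, and the related Ccrl2, were examined from a list of 15, of which 5 had values in all files. The other 10, among them Ccr2 and Ccr7, are not analysed here. Of the 5 with values, Ccr1 alone is a signalling receptor of the members, so the counts are mostly of atypical receptors. In LPS against Control 2 receptors rose, 1 fell and 2 did not pass, beside 38.7% of all tested genes called (26.6% higher and 12.1% lower). Against LPS, 0 passed in LPS+XJDHT by limma and 0 by limma-voom on recovered fragments, and 0 of the 5 had groups that did not overlap.

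Ccr1, a receptor for Ccl5, Ccl6, Ccl7 and Ccl9, was at 0.950, 1.15, 0.272 and 0.808 FPKM in Control, at 2.72, 1.59, 6.08 and 4.33 in LPS and at 2.70, 3.39, 2.64 and 1.96 in LPS+XJDHT. All treated libraries were above all Control libraries, and it rose by 1.31 ± 0.28 on the log2 scale in LPS (adjusted p = 0.0036). Ackr1, the atypical receptor of venular endothelium and red cells that binds chemokines without G protein signalling, was listed at 0 in all Control libraries and at 0.541, 1.29, 1.45 and 3.00 FPKM in LPS and 0.976, 1.47, 1.73 and 4.06 in LPS+XJDHT. It was listed through the treated groups, so its direction, a difference of 1.28 ± 0.31 on the log2(FPKM + 1) scale in LPS, was set by that listing.

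Ackr4, a scavenging receptor for Ccl19 and Ccl21, was at 3.13, 2.06, 2.51 and 3.36 FPKM in Control, at 0.543, 0.451, 1.39 and 1.77 in LPS and at 0.701, 0, 1.27 and 1.09 in LPS+XJDHT. It was lower in every treated library than in every Control library and fell by 0.93 ± 0.28 on the log2 scale in LPS (adjusted p = 0.022). That call was lost without Control 1, Control 4, LPS 1 or LPS 2 (adjusted p 0.0547 to 0.0642) and by limma-voom on recovered fragments (0.222). Ackr2, a scavenger of inflammatory CC chemokines, was at 0.946 to 2.36 FPKM in Control, 0.612 to 1.05 in LPS and 0.0853 to 1.54 in LPS+XJDHT, and did not pass in LPS (log2 difference -0.45, adjusted p = 0.235). Ccrl2, which binds chemerin and presents it to other cells, was at 2.91 to 8.40, 5.75 to 14.1 and 6.37 to 11.3 FPKM in these groups and did not pass either (0.60, adjusted p = 0.123).

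**Figure D5:**
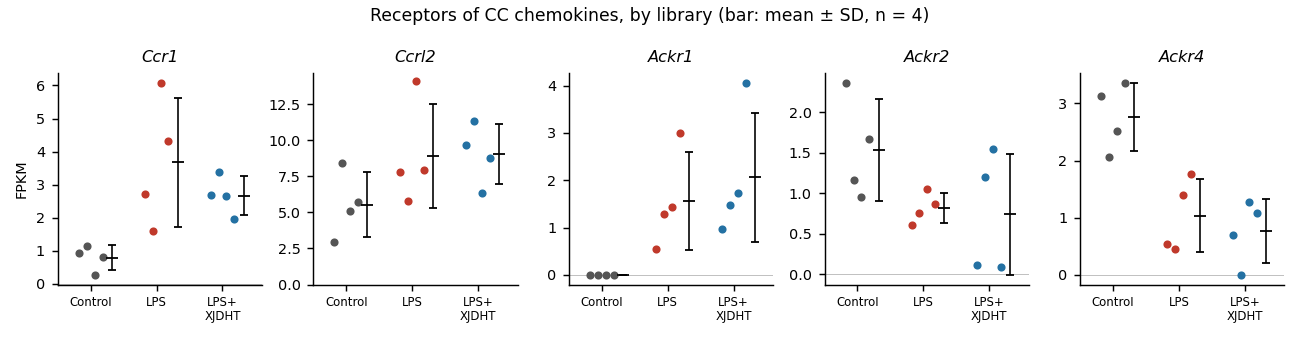
Points are FPKM (linear axes, own scale for each gene) of the 5 genes of the receptor list with values in all files, with the group mean ± SD (n = 4) beside them. Ccr1 and Ackr1 lie higher and Ackr4 lower in the LPS and LPS+XJDHT points than in the Control points, without overlap.

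Genes around the ligands were counted in 3 further lists, to be read beside the 26.6% of all tested genes that were called higher and the 12.1% called lower in LPS against Control. Of 20 tested genes of chemokine receptor signalling, from a list of 24, 9 rose, 0 fell and 11 did not pass in LPS against Control, with a median log2 change of 0.479. Pik3r5, counted as a rise, had a Control mean of 0.436 FPKM. It was listed through the treated groups, which set its direction. Among them Rac2, a small GTPase of leukocyte movement, went from 0.900 ± 0.291 to 6.01 ± 1.43 FPKM (log2 change 1.87 ± 0.16, adjusted p = 7.9e-06). Itgb2, the beta chain of leukocyte integrins, went from 3.17 ± 1.22 to 13.2 ± 4.78, and Gnai2, a G protein alpha subunit coupled to chemokine receptors, from 75.6 ± 4.93 to 125 ± 19.2.

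Of the 11 tested genes of chemokine processing and presentation, from a list of 15, 7 rose, 0 fell and 4 did not pass, again beside 26.6% higher and 12.1% lower for all tested genes. Mmp9 and Hpse, counted as rises, had Control means of 0.222 and 0.353 FPKM. They were listed through the treated groups, which set their direction, so the count with them is a description. Sdc4, a heparan sulfate proteoglycan of the cell surface, went from 9.36 ± 2.31 to 64.0 ± 21.6 FPKM (log2 change 2.61 ± 0.23, adjusted p = 7.7e-06). Mmp14 went from 5.85 ± 1.19 to 21.7 ± 3.796 and Mmp9 from 0.222 ± 0.0742 to 1.74 ± 0.301, both metalloproteinases, a class whose members can cleave chemokines. Of 16 transcription factors known at chemokine genes, 9 rose, 1 fell and 6 did not pass, beside the same 26.6% and 12.1%. Irf7 went from 2.42 ± 0.840 to 38.6 ± 4.61 FPKM (log2 change 3.56 ± 0.18, adjusted p = 2.2e-07), Nfkb2 from 6.21 ± 0.382 to 15.7 ± 2.70 and Cebpd from 6.98 ± 0.884 to 23.1 ± 8.45. In LPS+XJDHT against LPS, 0 genes of these 3 lists passed by limma.

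Stretches of 250 bases before the RefSeq start of transcription (GRCm38.p6) were in the reference table for 8 members at their annotated loci. Those members were Ccl6, Ccl8, Ccl9, Ccl12, Ccl17, Ccl19, Ccl21a and Ccl27a. Both strands were searched for the NF-kB motif, for the AP-1 motif TGANTCA and for the core of the interferon-response element, GAAA followed by any 2 bases and GAAA. Ccl12, which rose in LPS, held none of them. Ccl2, Ccl5, Ccl7 and Ccl11, the other members that rose, had no stretch in the reference table. Members that rose can therefore not be compared with the others for these motifs. Ccl9, which did not pass, held NF-kB and AP-1 matches, and Ccl19 held the interferon-response core, all in capitals below.
Ccl12: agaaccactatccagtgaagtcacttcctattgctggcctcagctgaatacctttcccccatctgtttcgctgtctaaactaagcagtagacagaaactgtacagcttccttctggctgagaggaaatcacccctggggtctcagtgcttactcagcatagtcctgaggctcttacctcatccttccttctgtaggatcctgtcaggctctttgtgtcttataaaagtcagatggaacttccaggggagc
Ccl9: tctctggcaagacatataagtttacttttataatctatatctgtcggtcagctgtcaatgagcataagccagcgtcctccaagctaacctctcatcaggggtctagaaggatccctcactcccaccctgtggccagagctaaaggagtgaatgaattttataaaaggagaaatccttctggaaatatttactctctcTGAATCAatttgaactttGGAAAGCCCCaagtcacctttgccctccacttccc
Ccl19: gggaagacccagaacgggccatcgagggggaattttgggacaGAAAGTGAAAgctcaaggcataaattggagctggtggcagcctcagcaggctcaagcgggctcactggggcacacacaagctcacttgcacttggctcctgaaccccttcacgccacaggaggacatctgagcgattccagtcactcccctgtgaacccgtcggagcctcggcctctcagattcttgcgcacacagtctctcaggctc
They lie at chr11:82101595-82101844 (plus strand), chr11:83578637-83578886 (minus strand) and chr4:42756366-42756615 (minus strand). Most of the Ccl19 stretch, with the marked core, lies inside the GENCODE gene (chr4:42754525-42756577) and not before its start. The stretches of Ccl21a and Ccl27a also overlap their GENCODE genes. Of all 32851 such stretches in the table, 7.25% held the NF-kB motif, 6.75% the AP-1 motif and 2.98% the interferon-response core. One of the starts of Ccl27a also held the AP-1 motif, and the other stretches held none of the 3. A match describes letters in this window and not a bound site.

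By the root mean square difference over the 12 libraries of log2(FPKM + 1), each gene set to its own Control mean, the genes most like Ccl2 among 10256 compared were Mmp3 (0.361), Lrg1 (0.424) and Timp1 (0.465). Mmp3 went from 5.09 ± 1.72 FPKM in Control to 102 ± 15.7 in LPS and 108 ± 21.5 in LPS+XJDHT. Most like Ccl5 were Ankrd2 (0.463), Rbm3 (0.469) and Fpr2 (0.475), with Ankrd2 at 0.269 ± 0.182, 16.6 ± 11.2 and 7.58 ± 2.36 FPKM. Most like Ccl6 were Tubb4a (0.249), Vwa1 (0.293) and Naa38 (0.313), with Naa38 at 20.4 ± 2.83, 11.8 ± 2.59 and 11.8 ± 2.07 FPKM.

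Whole heart holds many cell types, and fewer cells of a type cannot be told apart from less RNA per cell. Cardiomyocyte markers, all 7 of them listed, had summed levels of 14079 to 15832 FPKM in Control and 6074 to 7876 in LPS. Of the 7, 4 fell in LPS against Control and 3 did not pass (Tnnt2, Ryr2 and Pln). Beside the higher levels of Ccl2, Ccl7, Ccl12 and Ccl5, the summed level of 8 monocyte markers went from 38.7 to 64.9 FPKM in Control to 112 to 181 in LPS and 103 to 198 in LPS+XJDHT. Of these markers 4 passed and were higher, and 4 did not pass (Ly6c2, F13a1, Vcan and Fn1). Hp alone, at 4.10 ± 2.99 FPKM in Control and 74.4 ± 27.5 in LPS, made up most of the difference: without it the sums were 37.9 to 56.8 in Control, 67.4 to 83.5 in LPS and 56.9 to 95.3 in LPS+XJDHT. Of 12 neutrophil markers 8 had values, with sums of 1.25 to 2.73, 80.0 to 118 and 75.6 to 153 FPKM, while Ly6g, Cxcr2, Elane and Mpo had no value in all files. All but S100a8 and S100a9 had Control means under 0.5 FPKM and were listed through the treated groups, which sets their direction. Resident macrophage markers, 12 of 13 with values, overlapped between groups (179 to 285, 166 to 414 and 184 to 308 FPKM), and of these 2 rose, 1 fell and 9 did not pass. Fibroblast markers, all 6 of them listed, had sums of 353 to 430, 695 to 828 and 567 to 907 FPKM. Most of each sum was Dcn, at 304 ± 40.1, 651 ± 49.5 and 676 ± 139 FPKM. In LPS against Control 3 of the 6 rose, 0 fell and 3 did not pass.

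For T and NK cells 2 of 12 markers had values, with sums of 0 to 0.458, 2.05 to 4.29 and 0.882 to 5.33 FPKM in Control, LPS and LPS+XJDHT, and Cd3e, Cd4 and Cd8a were not listed in all files. These 2, Gzma and Gzmb, had Control means of 0.087 and 0.028 FPKM. They were listed through the treated groups, which sets the direction of the sum. For B cells 0 of 4 had values. Lymphatic endothelium, a known source of Ccl21, had all 5 of its markers listed, at sums of 9.68 to 12.3, 14.8 to 28.2 and 17.0 to 24.8 FPKM. Of the 3 tested in LPS against Control, Pdpn rose and Flt4 and Mmrn1 did not pass, and without Pdpn the sums were 7.28 to 10.3, 8.77 to 11.3 and 10.5 to 13.4 FPKM, with Control and LPS overlapping. The part of these cell types in the chemokine changes was not tested.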

How the data were processed

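Ribosomal RNA was removed from total heart RNA before sequencing, per the labels' protocols, and the labels put 4 mice in each group. The authors deposited 1 FPKM value per transcript and library, the number of fragments divided by transcript length and by the size of the library. The headers name no unit, and it was inferred from values above 0 that rest on few fragments, 4624 to 5743 per library. They were multiplied by annotated length and by a library size chosen to bring as many as possible near whole numbers. Of these values 99.0% to 99.4% were then within 0.1 of a whole number of fragments. The submitters' processing notes name mm10 and limma without a role. No aligner or quantifier is named there.

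FPKM was summed per gene symbol over the 24723 GENCODE (GRCm38) transcripts listed in all 12 files, which gave 12856 genes, and 10120 transcripts without an Ensembl identifier were left out. The plan allowed for counts, but the files hold FPKM, so limma was the main test. A model of 3 group means was fitted with limma 3.58.1 (R 4.3.3, empirical Bayes with an intensity trend) to log2(FPKM + 1) of 11502 genes, two-sided. The same fit was also run on simulated data built from the means and spreads of these genes. Sums, searches and plots were made with Biopython 1.88, matplotlib 3.10.9, NumPy 2.4.6 and pandas 2.3.3 in Python 3.11.15. Alternatives were other filters, pseudocounts and scalings, voom, quality weights, a fit of the compared groups alone and leaving out each library. The sum of Ccl21a and Ccl21b was added after seeing the data.

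All members and all listed receptors are named. From the other 3 pathway lists the 3 called genes with the smallest adjusted p in LPS against Control are named, and for Ccl2, Ccl5 and Ccl6 the 3 most similar genes. Members, lists and markers were chosen with earlier results of these data known. Nothing in the labels gives a batch. In the main fit the p-values set each difference against the spread between libraries within groups, each library 1 mouse. That spread was pooled over the 3 groups and drawn towards an intensity trend over all tested genes. Same-group libraries differed far beyond counting noise (chi-square per degree of freedom 133 to 404 over 18 pairs).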

Additional observations from a re-analysis of the deposited data

Results flagged for a closer look

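In 5 of the 53 group-and-gene sets of 4 libraries examined, 1 library lay far from the other 3, where chance alone flags about 1 in 20. Ccl5 in Control 2 was at 1.03 FPKM, while the other Control libraries were at 0.169 or 0. Ccl7 in the same library was at 4.44 FPKM, above the other Control values of 0.786 to 1.34. Ccl17 in LPS 2 was at 4.95 FPKM against 0.184 to 0.723. Control 3 was the low library for Ccl21a, at 18.6 FPKM against 28.4 to 29.1, and for Ccl24, at 0.337 against 1.22 to 1.38.

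The pseudogenes Ccl19-ps1 and Ccl19-ps3, copies of Ccl19 on chromosome 4 that are no members, also had signal in LPS above the level in Control. The mean of Ccl19-ps1 was 0.1001 FPKM in Control and 0.584 in LPS, and that of Ccl19-ps3 was 0 in Control and 0.904 in LPS. How reads were divided between Ccl19 and these copies is not given in the sources used here.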

How the results depend on the processing

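Each comparison was recomputed under up to 22 alternatives. Of 946 values for named genes, 905 kept direction and call, 13 lost a call, 14 gained one and 14 changed sign, none of the last with a call on either side. In LPS against Control 4 to 6 members rose and 1 fell under each, and in LPS+XJDHT against LPS 0 members passed under any. Members that fell in LPS+XJDHT against Control numbered 2, but 1 by limma-voom and 1 with Ccl21a and Ccl21b summed, and 0 to 2 when a library was left out (0 without Control 1). Of 3 receptors called in LPS against Control, 0 remained at a limit of 5 FPKM, where fewer genes are tested. Scaling each library by its median ratio gave 2131 genes higher and 2127 lower in LPS against Control (3065 and 1387 otherwise), and 1969 and 2052 in LPS+XJDHT against Control (3277 and 1235 otherwise). In LPS+XJDHT against LPS 13 genes were lower, but 41 with no filter, 1 at 5 FPKM and 3 to 7 without an LPS library, and up to 3 genes were higher. Ccl11 passed in LPS+XJDHT against Control under 7 alternatives (adjusted p 0.0112 to 0.0481). Ackr4 did not pass in LPS against Control at a pseudocount of 0.1 (0.134), and Ccl21a did not pass in LPS+XJDHT against Control by limma-voom (0.0765). The sign changed for Ccl21b in LPS against Control by limma-voom (0.81), for Ccl8 in LPS+XJDHT against LPS with quality weights (0.0050) and for Ccl21b in LPS+XJDHT against Control with median-ratio scaling (-0.0043). With 1 library left out, log2 differences of LPS+XJDHT against LPS ranged from -0.28 to 0.019 for Ccl2, from -0.32 to 0.19 for Ccl8, from -0.031 to 0.48 for Ackr1, from -0.39 to 0.024 for Ackr2, from -0.36 to 0.032 for Ackr4 and from -0.10 to 0.29 for Ccrl2. Those of LPS+XJDHT against Control ranged from -0.24 to 0.094 for Ccl9 and from -0.43 to 0.48 for Ccl21b. The cause of these changes was not tested. Transcripts under about 0.5 FPKM in both groups are in no file, so low chemokines and receptors could not be measured. No paired analysis was possible because the replicate numbers used here only name libraries in accession order, and no mouse number in the labels occurs in more than 1 group.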
